A study of Mus musculus with 24 samples.

Results

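Plasminogen activation turns an abundant circulating proenzyme, plasminogen, into plasmin, a protease that dissolves fibrin and opens the extracellular matrix. Urokinase (Plau) does this at the cell surface while bound to its receptor (Plaur), and tissue plasminogen activator (Plat) does it mainly on fibrin. Serpins stop both activators, and surface proteins such as the annexin A2 and S100A10 complex and the receptor Plgrkt hold plasminogen and its activators at the membrane. In carcinomas the system is best known for its part in invasion, wound-like repair and matrix turnover. The genes described here are Plau, Plaur, Plat, Serpine2, Serpinb2, Plgrkt, Anxa2 and S100a10, 8 of the 27368 genes counted. They were selected by symbol from this system with earlier results of the same tumours in view, so their radiation values are given as a description and without a p-value. The p-values given for other comparisons belong to genes picked with results known and are not independent evidence either.

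RNA was sequenced from 24 tumours that grew under the skin of female C3H mice aged 6 to 8 weeks after injection of SCC7 cells, a mouse squamous carcinoma line. Injected cells either held an empty vector, the control line (NC), or overexpressed miR-21-5p (OE). Tumours received a sham treatment, X-rays of 8 Gy a day for 3 days (IR), olaparib, a PARP inhibitor given into the peritoneum at 50 mg/kg, or both. This makes 8 groups of 3 tumours: NC sham, NC olaparib, NC IR, NC IR with olaparib, OE sham, OE olaparib, OE IR and OE IR with olaparib. The promoter that drives miR-21-5p, and whether the OE and NC cells were single clones, are not given in the sources used here. Groups follow the letters of each tumour's coded identifier. The written treatment and batch labels name a different group for 19 of the 24 tumours and the same group for 5, and that reading is given beside the main results.

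Libraries held 37099055 to 40004502 counted reads, and 16560 genes, all 8 members among them, passed the filter on low counts. Levels are given as CPM, reads of a gene relative to a fixed total of counted reads, after TMM scaling. Among squamous markers, Krt5 (median 0.690 CPM, up to 107), Krt14 (0.901, up to 149) and Trp63 (0.331, up to 7.79) were near 0 in most tumours. So were Krt17 (0.201, up to 23.3) and Krt6a (0.210, up to 90.0). Itga6 of the same list went the other way, with a median of 140 CPM and a lowest level of 65.2 CPM. The epithelial keratin Krt8 had a median of 470 CPM. The third OE tumour given IR with olaparib stood apart. It held 9 reads of Krt8 (0.285 CPM, against 141 CPM in the next lowest tumour) and 43296 CPM of the collagen gene Col1a1 (against 1269 CPM in the next highest). Results that rest on it are given with and without it. In whole tumours, a change in the number of cells that express a gene and a change in RNA per cell cannot be told apart.

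The mature strand of the overexpressed microRNA is shown because its seed defines where it can pair, with bases 2 to 8, the seed, in capitals.
mmu-miR-21a-5p: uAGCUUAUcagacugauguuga
The seed match, ATAAGCT in DNA letters, occurred in 0 of the 8 members' longest annotated 3' UTRs (GENCODE M21, protein-coding transcripts), which ran from 239 bases in S100a10 to 935 in Plau. Only this match was searched, so other kinds of site are not covered. Its share over the 3' UTRs of all genes is not given here, so the 0 has no background to be read against.

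Promoter sequence is shown for the members that moved most with radiation or with each other and have an entry in the RefSeq table (GRCm38.p6), as the 250 bases before the annotated start, read 5′ to 3′ on the gene's strand. Windows were available for 5 of the 8 members, and those of Serpine2 and Anxa2 do not begin at a coding transcript start of GENCODE M21. Capitals mark matches on either strand to AP-1 (TGANTCA), the GC box (GGGCGG) and the TATA box (TATAAA).
Plaur, chr7:24462233-24462482, plus strand: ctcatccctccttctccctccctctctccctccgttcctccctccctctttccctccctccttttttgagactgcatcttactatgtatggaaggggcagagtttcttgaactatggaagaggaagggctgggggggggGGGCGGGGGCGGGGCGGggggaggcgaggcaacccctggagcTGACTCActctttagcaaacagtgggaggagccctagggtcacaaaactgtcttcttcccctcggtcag
Anxa2, chr9:69453433-69453682, plus strand: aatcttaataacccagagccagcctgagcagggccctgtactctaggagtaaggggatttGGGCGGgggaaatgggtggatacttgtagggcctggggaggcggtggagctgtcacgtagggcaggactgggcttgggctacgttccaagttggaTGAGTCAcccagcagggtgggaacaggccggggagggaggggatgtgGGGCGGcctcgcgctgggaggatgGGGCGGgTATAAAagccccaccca
Serpinb2, chr1:107511173-107511422, plus strand: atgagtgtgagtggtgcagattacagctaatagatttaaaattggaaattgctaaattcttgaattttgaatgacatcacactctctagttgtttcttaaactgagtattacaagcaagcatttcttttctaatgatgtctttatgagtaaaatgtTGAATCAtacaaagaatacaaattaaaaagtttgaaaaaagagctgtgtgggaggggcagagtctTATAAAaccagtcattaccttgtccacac
Serpine2, chr1:79858666-79858915, minus strand: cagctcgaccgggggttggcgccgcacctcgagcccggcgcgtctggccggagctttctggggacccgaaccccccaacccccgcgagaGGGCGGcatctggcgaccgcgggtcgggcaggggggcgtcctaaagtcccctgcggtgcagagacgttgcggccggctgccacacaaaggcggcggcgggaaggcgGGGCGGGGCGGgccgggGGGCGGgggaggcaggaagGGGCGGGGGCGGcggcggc
The windows of Plaur, Anxa2 and Serpinb2 printed here each held 1 AP-1 match, at -69 to -63, -95 to -89 and -94 to -88 from the start, and the windows of Serpine2 and Plgrkt held none. An AP-1 match was present in 6.75% of the 32851 promoter windows of the same length. Serpine2 instead had 6 GC boxes and a GC content of 78.8%, against 32.4% and no CpG in Serpinb2. A GC box was present in 32.7% of windows and a TATA box in 12.4%. The NF-kB motif, present in 7.25% of windows, was found in no member's window. These matches are letters in a window, and no binding was measured.

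Urokinase, the central activator, was highest in irradiated OE tumours, at 202.4 to 297 CPM against 51.6 to 198.1 CPM in all others. Plau (Entrez 18792, chromosome 14, 20836660 to 20843385, mm10) stood at 297, 253 and 294 CPM in the 3 OE IR tumours and at 251, 202 and 269 CPM in the 3 OE tumours given IR with olaparib. In unirradiated OE tumours it was 141, 147 and 95.8 CPM after sham treatment and 119, 137 and 165 CPM under olaparib. All 6 irradiated OE tumours thus lay above all 6 unirradiated ones, a pattern that 4% of the genes tested showed. NC tumours held 153, 109 and 112 CPM after sham treatment and 119, 111 and 51.6 CPM under olaparib. After IR they held 104, 86.3 and 54.3 CPM, and after IR with olaparib 121, 198 and 74.0 CPM. The irradiated NC tumours, at 54.3 to 198 CPM, overlapped the unirradiated NC tumours, at 51.6 to 153 CPM.

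Plau was 1 of 12 genes (0.0725% of those tested) whose 6 irradiated OE tumours lay above all 18 others, although the margin was small, with 202.4 CPM as the lowest of the 6 and 198.1 CPM as the highest of the 18. The other 11 included Oaf, Wsb2, the matrix metalloproteinase Mmp10 and the interleukin-1 receptor antagonist Il1rn, named after their values were seen. By group mean, OE IR (282 ± 24.7 CPM, SD, n = 3) and OE IR with olaparib (241 ± 34.5) came first, each separated from the next group by more than the larger SD of the pair. The other 6 groups ran from 140 CPM in OE olaparib to 81.5 CPM in NC IR, with every gap between neighbours below that SD.

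**Figure D1:**
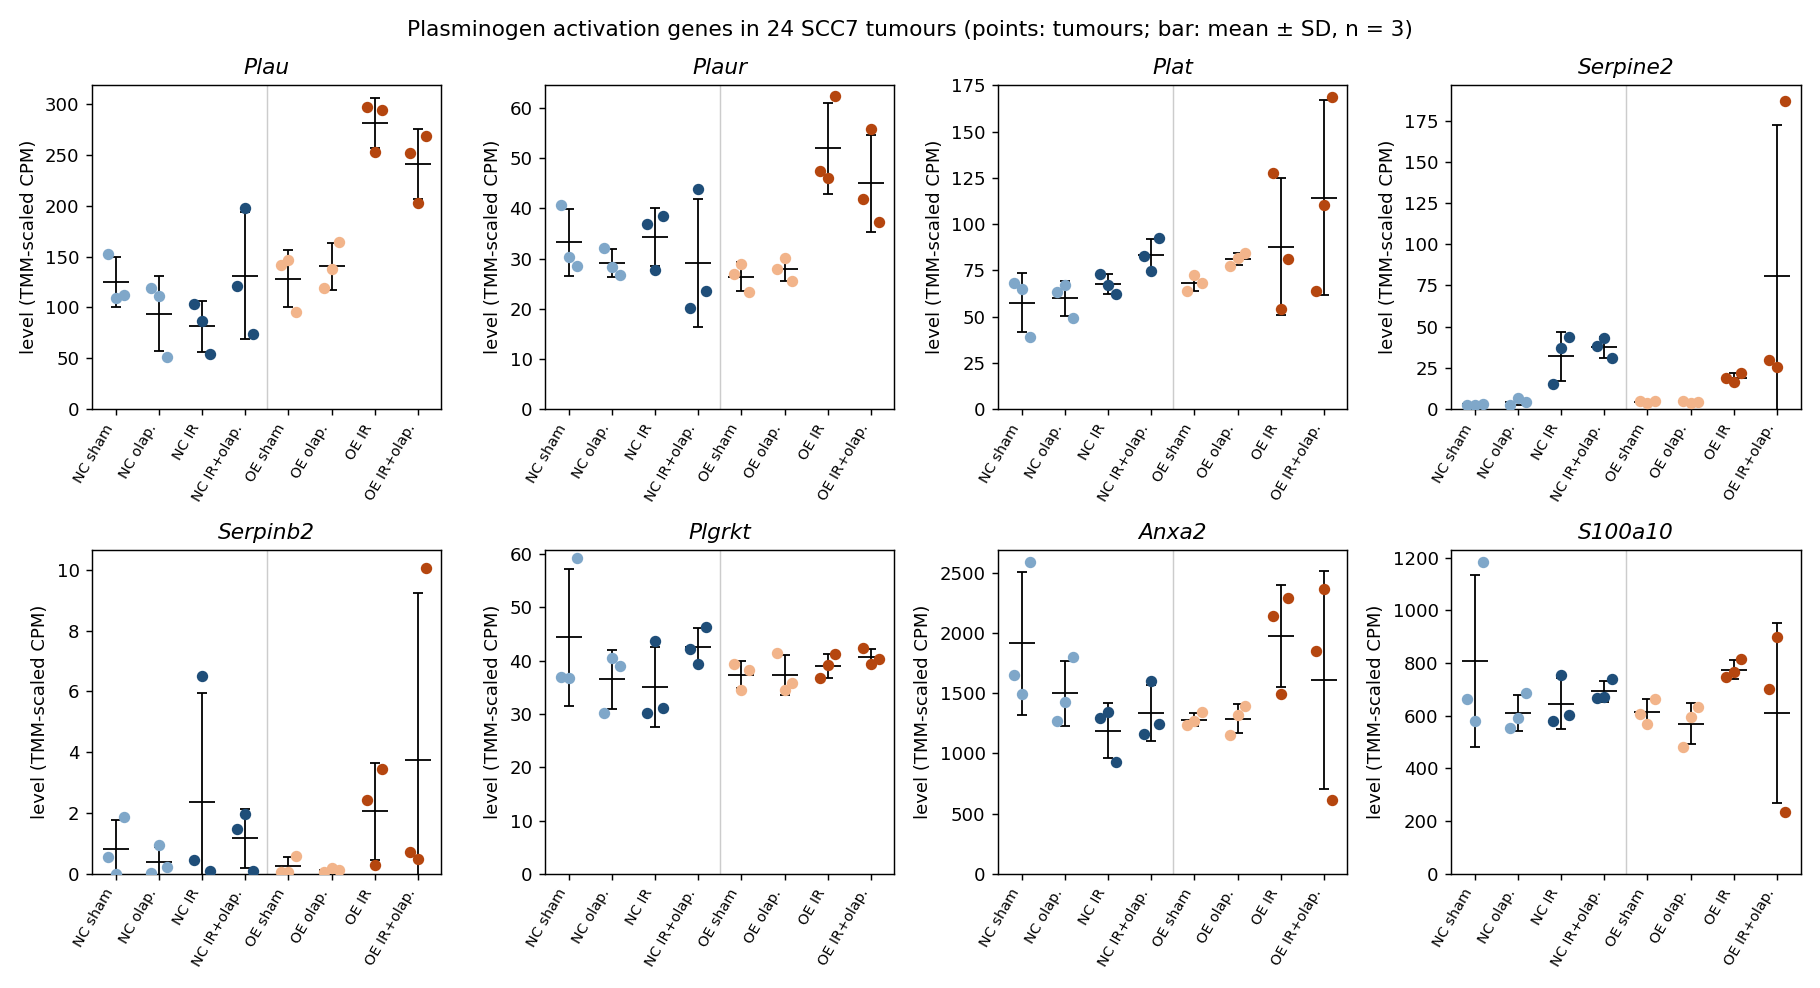
Level of each of the 8 genes (TMM-scaled CPM, linear axes from 0) in the 3 tumours of each group, with the mean and SD as bars, cut at 0 where the SD exceeds the mean. Plau and Plaur have their highest group means in OE IR (282 and 52.0 CPM), and Serpine2 is raised in all irradiated groups.

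The comparison of OE with NC asks what miR-21-5p overexpression goes with, and it was made over all 4 treatments and, after the data were seen, within irradiated and unirradiated tumours. In irradiated tumours Plau was 261 ± 34.8 CPM in OE and 106 ± 50.6 CPM in NC (SD, n = 6 each), a log2 fold change of 1.33 ± 0.23 (SE, edgeR adjusted p = 0.0189), and all 6 OE tumours lay above all 6 NC tumours, as for 0.779% of genes. It was the only 1 of the 8 members called there, against 1.31% of all genes called and 0.755% called higher. Leaving out 1 tumour at a time gave 1.19 to 1.56, and the call was lost in 5 of the 24 cases, without NC IR tumour 2, OE IR tumour 1 or 3, or tumour 1 or 3 of NC given IR with olaparib (highest adjusted p = 0.0732). The share of genes called depended on the tumour that stood apart: without it 14.1% of genes and 3 members passed (Plau, Plaur and Anxa2). In unirradiated tumours Plau was 134 ± 23.9 CPM in OE and 109 ± 32.7 CPM in NC, a log2 difference of 0.31 ± 0.23 (95% interval -0.17 to 0.79, edgeR adjusted p = 0.794), where 0.00604% of genes were called. None of the 8 members passed there with edgeR or DESeq2, and none had an unadjusted p under 0.05. Over all 4 treatments the difference was 0.82 ± 0.16 (adjusted p = 0.0362), with 6 of 12 OE tumours above every NC tumour, and again Plau alone of the members passed, beside 0.453% of genes called and 0.217% called higher. Of the 4 treatments taken singly, Plau passed under radiation alone (282 against 81.5 CPM, log2 1.79 ± 0.33, edgeR adjusted p = 0.0465), where 0.0845% of genes did. That call was lost in 19 of the 24 fits that left out 1 tumour. In the other 3 treatments 0% of genes and 0 of 8 members passed with edgeR, DESeq2 called 0 members, and 2 members (Plau and Plaur, under radiation plus olaparib) had an unadjusted p under 0.05. By the written labels the irradiated difference was 0.63 with an adjusted p of 0.243.

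Irradiated OE tumours also differed in a marker list, singled out here from 9 such lists. The summed level of 6 pericyte markers was 276 to 960 CPM in the 6 irradiated OE tumours and 165 to 249 CPM in the other 18. With all tumours in the fit, 0 of the 6 genes passed the edgeR test of irradiated OE against irradiated NC. The 6 genes were not tested without the tumour that stood apart. None of the 6 was at 0 in any tumour. The markers did not move as 1: in the tumour that stood apart, which had the highest sum, Rgs5 was the highest of all 24 (371 CPM) and Cspg4 the lowest (20.3 CPM), while Cspg4 made up 225 of 299 CPM in the first OE IR tumour. The list's part in the Plau result was not tested. Plau was as high without the tumour that stood apart, at 260 ± 38.7 CPM in the other 5.

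The urokinase receptor was also highest on average in irradiated OE tumours, by a smaller margin. Plaur (Entrez 18793, chromosome 7, 24462484 to 24475968), which anchors urokinase to the membrane, was 47.4, 46.1 and 62.3 CPM in OE IR and 41.8, 55.8 and 37.3 CPM in OE IR with olaparib. Unirradiated OE tumours held 23.4 to 30.1 CPM, so that the 2 sets of 6 did not overlap, as for 4% of genes. NC tumours held 40.8, 30.4 and 28.6 CPM after sham treatment and 32.1, 28.3 and 26.7 CPM under olaparib. Irradiated NC tumours held 36.9, 27.8 and 38.4 CPM after IR, and 20.1, 43.8 and 23.6 CPM after IR with olaparib. They spread on both sides of the unirradiated tumours. OE against NC among irradiated tumours gave 48.5 ± 9.18 against 31.8 ± 9.30 CPM (n = 6 each), a log2 difference of 0.61 ± 0.17 that did not pass with edgeR (adjusted p = 0.0742) and passed with DESeq2 (adjusted p = 0.0187). It passed with edgeR without the second NC tumour given IR with olaparib or without the OE tumour that stood apart.

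Whether radiation acted differently in OE and NC was tested as an interaction. For Plau the radiation effect was -0.07 ± 0.23 in NC and 0.96 ± 0.23 in OE on the log2 scale, and the difference of 1.02 ± 0.32 gave an edgeR adjusted p of 0.252 (95% interval 0.34 to 1.70). For Plaur the effects were 0.03 ± 0.17 and 0.83 ± 0.17, and the difference of 0.81 ± 0.24 gave an edgeR adjusted p of 0.211 (95% interval 0.31 to 1.30). Anxa2 showed -0.43 ± 0.24 and 0.47 ± 0.24, with a difference of 0.90 ± 0.33 (edgeR adjusted p = 0.318). So 0 of 8 members passed after adjustment by edgeR or by DESeq2, 3 had an unadjusted p under 0.05, and 0.00604% of all genes passed with edgeR. Without the tumour that stood apart, Plaur and Anxa2 passed (for Anxa2 1.11, edgeR adjusted p = 0.0147), among 593 genes called in place of 1, and Plaur alone passed without the second NC tumour given IR with olaparib. For Serpine2 the difference was -0.10 ± 0.55, and for Plat 0.08 ± 0.29. With all tumours the Serpine2 radiation effect was 3.29 in NC and 3.18 in OE. Without the tumour that stood apart it was 2.40 in OE.

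**Figure D2:**
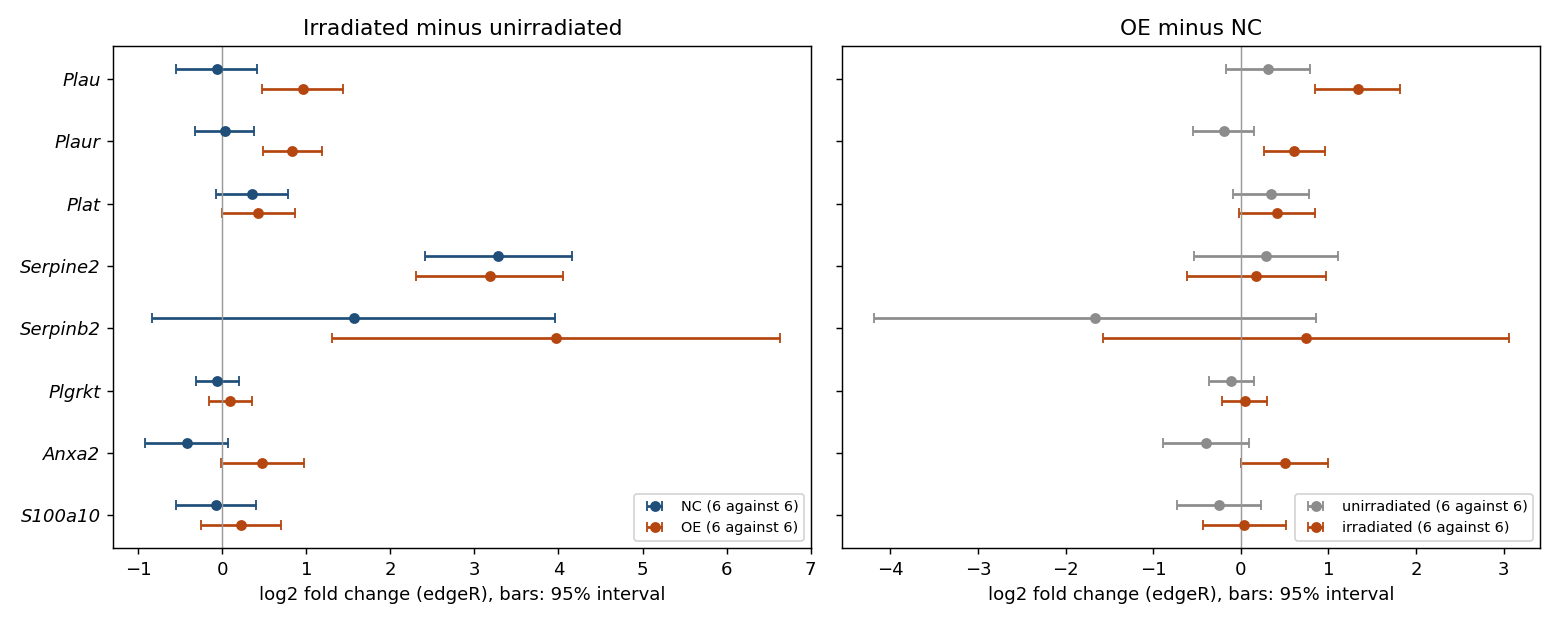
Log2 fold changes of the 8 genes with 95% intervals, for irradiated against unirradiated tumours in NC and in OE (left) and for OE against NC in unirradiated and in irradiated tumours (right). Plau lies at -0.07 in NC and 0.96 in OE for radiation, whereas Serpine2 lies at 3.29 and 3.18.

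Averaged over the strata, the inhibitor Serpine2 had the highest fold change of the members with radiation, while in OE alone the scarce Serpinb2 had a higher and less certain one (3.97 ± 1.27). Serpine2 (Entrez 20720, chromosome 1, 79794197 to 79861180), which encodes protease nexin-1, an inhibitor of thrombin, urokinase and plasmin, stood at 2.65 to 6.83 CPM (median 3.85) in the 12 unirradiated tumours and at 15.3 to 187 CPM (median 30.3) in the 12 irradiated ones. Every irradiated tumour lay above every unirradiated one, which held for 34 genes or 0.205% of those tested. NC IR tumours held 15.3, 36.8 and 44.0 CPM and NC tumours given IR with olaparib 38.5, 43.4 and 30.8 CPM. OE IR tumours held 18.7, 16.7 and 21.9 CPM, and OE tumours given IR with olaparib 29.8, 25.5 and 187 CPM. The highest value belongs to the tumour that stood apart. The averaged log2 fold change was 3.23 ± 0.30, a 9.41-fold difference, and it was 2.84 without that tumour. Radiation gave 3.29 ± 0.42 in NC, where all 6 irradiated tumours lay above all unirradiated ones as for 2.48% of genes, and 3.18 ± 0.42 in OE (2.40 without the tumour that stood apart). Among irradiated tumours OE and NC were not told apart (49.9 ± 67.2 against 34.8 ± 10.7 CPM, log2 0.18 ± 0.38, edgeR adjusted p = 0.827). The direction of that difference rests on the tumour that stood apart. The other 5 irradiated OE tumours held 22.5 ± 5.27 CPM (16.7 to 29.8), below the NC mean and within the NC range. Serpine2 was not called for OE against NC without that tumour either.

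Serpinb2 (Entrez 18788, chromosome 1, 107511423 to 107535478), plasminogen activator inhibitor 2, was scarce and uneven. NC sham tumours held 21, 0 and 61 reads, NC olaparib 1, 38 and 8, OE sham 3, 2 and 24, and OE olaparib 3, 7 and 5. After IR the NC tumours held 19, 250 and 3 reads and the OE tumours 88, 11 and 134. After IR with olaparib the NC tumours held 59, 76 and 3 reads and the OE tumours 27, 19 and 318. High counts thus came from a few tumours, and the irradiated and unirradiated ranges overlapped (0.0773 to 10.1 against 0 to 1.86 CPM). The averaged log2 fold change was 2.76 ± 0.85, and 2.00, no longer called, without the second NC IR tumour. Its annotated span overlaps Serpinb10 on the same strand, which held 0 to 65 reads, so that reads at shared bases are uncertain.

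**Figure D3:**
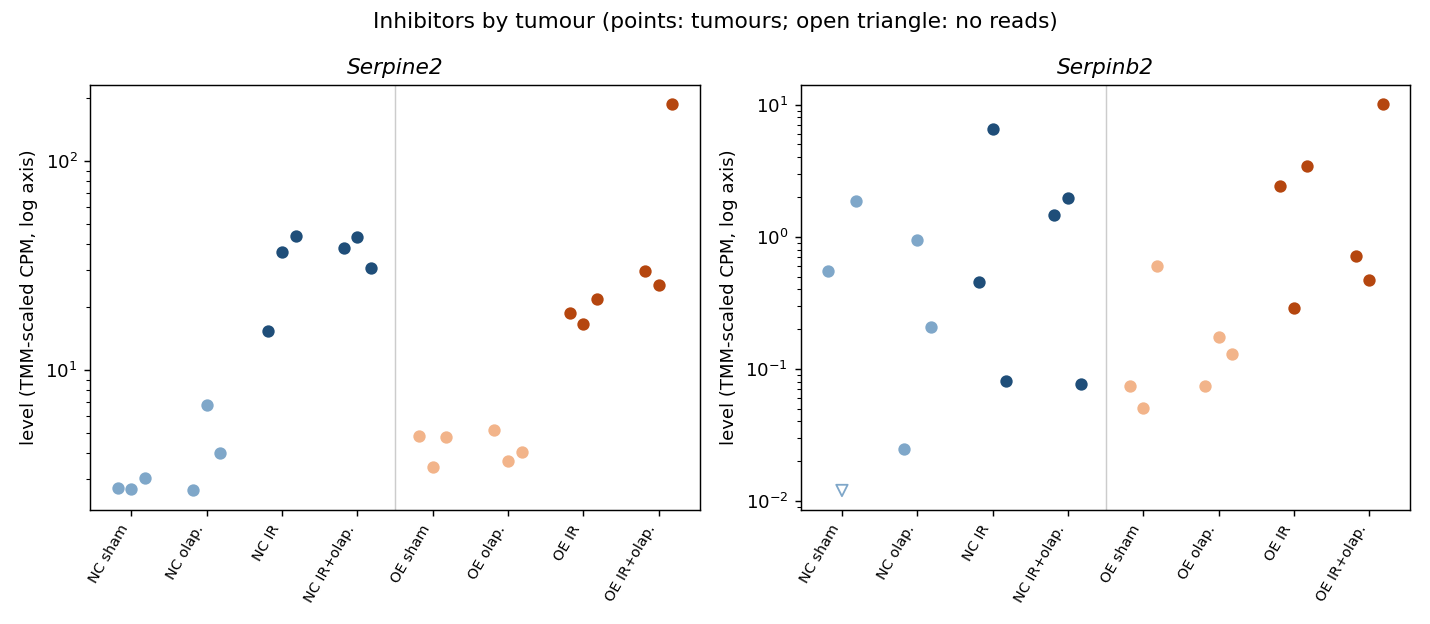
Serpine2 and Serpinb2 by tumour and group on log axes (TMM-scaled CPM), with an open triangle for the tumour without Serpinb2 reads. For Serpine2 the 12 irradiated tumours start at 15.3 CPM and the 12 others end at 6.83 CPM, while the Serpinb2 ranges overlap.

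Plat (Entrez 18791, chromosome 8, 22757727 to 22782844), the fibrin-bound activator, differed little between most groups. Unirradiated tumours held 39.2 to 84.2 CPM (median 67.4) and irradiated ones 54.2 to 169 CPM (median 78.0). The OE IR tumours held 127, 54.2 and 81.3 CPM and the OE tumours given IR with olaparib 63.7, 110 and 169 CPM, the last being the tumour that stood apart. The irradiated OE tumours therefore held both the lowest and the highest irradiated value. The averaged radiation change was 0.39 ± 0.15 and lost its call in 17 of 24 fits that left out 1 tumour. Without the tumour that stood apart it was 0.28 and not called. OE against NC over the 4 treatments gave 0.38 ± 0.15 (87.7 ± 32.7 against 67.0 ± 13.9 CPM, n = 12, edgeR adjusted p = 0.225).

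Averaged over the 4 strata (12 tumours against 12), radiation went with higher levels of 5 of 8 members (Plau, Plaur, Plat, Serpine2 and Serpinb2) and with lower levels of none, in a contrast where 39.1% of all genes were called and 21.7% were called higher. Without the tumour that stood apart 3 members were called (Plaur, Serpine2 and Serpinb2), where 36.9% of all genes were called. Since these members were chosen with such results known, the counts describe the choice. Plau (0.45 ± 0.16) and Plaur (0.43 ± 0.12) averaged different values in OE and NC. For Plau the NC value of -0.07 itself joined -0.61 ± 0.33 without olaparib and 0.48 ± 0.32 with it, and neither was called. Plau kept its call in 10 of 24 fits that left out 1 tumour and Plaur in all 24. In NC, 1 member was called, Serpine2, where 25.8% of genes were called and 12.9% called higher. In OE, 4 were called, Plau, Plaur, Serpine2 and Serpinb2, where 12.8% of genes were called and 8.17% called higher. The Serpinb2 call in OE held in 11 of 24 fits that left out 1 tumour. Without the tumour that stood apart Serpinb2 was not called in OE (2.63) and Anxa2 was. In that fit Anxa2 was also called in NC and in NC without olaparib. Its change in NC without olaparib pointed down, at -0.69 ± 0.33 with all tumours. Within single strata, Serpine2 was called in NC without olaparib (10% of genes called), in NC with olaparib (1.46%) and in OE with olaparib (6.78%), and no member in OE without olaparib (0.248%), where 3 members had an unadjusted p under 0.05 and DESeq2 called 3. Under the written labels edgeR called 0 members in any of these contrasts and 1 gene of all those tested in the averaged one, where Serpine2 stood at 1.61.

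Several marker lists also differed with radiation, where 21.7% of all genes were called higher and 17.5% lower. Of 6 tested neutrophil markers 6 were higher, with summed levels between 26.6 and 452 CPM after radiation and between 20.7 and 50.4 CPM without it, and the defining marker Ly6g was at 0 in 14 of 24 tumours. Of 8 macrophage markers 7 were higher, with sums of 2609 to 18671 against 4755 to 13401 CPM and none at 0. Muscle markers (6 of 8 higher, 43.5 to 14857 against 22.1 to 1311 CPM) and platelet markers (3 of 4 higher, 20.4 to 185 against 17.5 to 50.4 CPM) also differed, and 5 of 6 T cell markers were lower (16.2 to 90.7 against 32.8 to 271 CPM). The highest neutrophil and platelet sums belong to the tumour that stood apart. The next highest irradiated sums were 157 CPM for neutrophil and 65.4 CPM for platelet markers. The fibroblast (2 of 7), endothelial (1 of 6), pericyte (2 of 6) and squamous lists (1 of 6) had few genes called higher and none lower. Over the 24 tumours, which share these groups, Serpine2 had a Spearman rho of 0.762 with the neutrophil sum and 0.675 with the macrophage sum. Among the 12 irradiated tumours these were 0.839 and 0.392, and among the 12 unirradiated -0.0769 and 0.259. With the endothelial sum rho was 0.31 over all 24, 0.86 among the irradiated and 0.378 among the unirradiated tumours. The part of these cells in the members' changes was not tested. With all tumours in the fit, none of the 9 marker lists had a gene called for OE against NC among irradiated tumours. The lists were not tested without the tumour that stood apart, where 14.1% of all genes were called.

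The plasminogen-docking genes were among the members not called with radiation, and S100a10 and Anxa2 were the most abundant of the 8. Per kilobase of annotated exon, mean levels over the 24 tumours were 550 ± 139 CPM for S100a10 and 405 ± 125 CPM for Anxa2, then 64.5 ± 31.0 for Plau, 13.2 ± 4.08 for Plaur, 12.4 ± 4.28 for Plat and 10.3 ± 1.56 for Plgrkt. Serpine2 (2.80 ± 4.55) and Serpinb2 (0.579 ± 1.01) were the lowest. Transcribed length is taken from all annotated exons together, so a gene with long, rarely used exons is understated. Serpine2 and S100a10 had the longest and shortest lengths, 8287 and 1212 bases.

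Anxa2 (Entrez 12306, chromosome 9, 69453620 to 69491795), the membrane-binding annexin of that complex, held 2142, 1496 and 2292 CPM in OE IR and 1852, 2367 and 610 CPM in OE IR with olaparib. Unirradiated OE tumours held 1155 to 1393 CPM, so 5 of the 6 irradiated OE tumours lay above all of them, and the tumour that stood apart lay below. NC tumours ran from 930 to 1603 CPM after radiation and from 1269 to 2592 CPM without it. OE against NC in irradiated tumours gave 1793 ± 662 against 1262 ± 222 CPM, a log2 difference of 0.50 ± 0.24 (edgeR adjusted p = 0.268). Without the tumour that stood apart it was 0.72 (edgeR adjusted p = 0.00933), with 2030 ± 358 CPM in the other 5 OE tumours. The antisense gene Gm16144 overlaps Anxa2, and the strand setting of the counts is not given, so their reads cannot be told apart.

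S100a10 (Entrez 20194, chromosome 3, 93555080 to 93564643), its S100 partner and the subunit whose tail binds plasminogen, was 746, 766 and 815 CPM in OE IR and 700, 900 and 234 CPM in OE IR with olaparib. The range was 581 to 756 CPM in irradiated NC tumours and 483 to 1183 CPM in the unirradiated 12. Radiation gave 0.07 ± 0.16 on average, and OE against NC in irradiated tumours 0.04 ± 0.23 (95% interval -0.43 to 0.52, edgeR adjusted p = 0.941). Without the tumour that stood apart, the other 5 irradiated OE tumours held 785 ± 76.2 CPM, against 669 ± 70.2 CPM in irradiated NC tumours. Their ranges overlapped (700 to 900 against 581 to 756 CPM), and S100a10 was not called for OE against NC there. Both genes had their highest value in the third NC sham tumour and their lowest in the tumour that stood apart.

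S100a10 and Anxa2 moved together over the 24 tumours (Spearman rho 0.693) but not in a fixed proportion. The ratio of their levels per kilobase was 1.21 ± 0.19 in irradiated OE tumours (1.07 to 1.58), 1.67 ± 0.27 in irradiated NC tumours (1.29 to 1.99), 1.42 ± 0.09 in unirradiated OE and 1.27 ± 0.09 in unirradiated NC tumours (n = 6 each). The ranges of the irradiated OE and NC tumours overlapped. For Plau over Plaur the ratio was 6.14 ± 1.39 in irradiated OE and 3.87 ± 1.75 in irradiated NC tumours, again with overlap (4.01 to 7.97 against 1.56 to 6.67). In unirradiated tumours it was 5.47 ± 0.95 in OE and 3.84 ± 0.85 in NC, without overlap (4.53 to 7.11 against 2.14 to 4.35). The share of other gene pairs that separate in this way was not computed. For Plau over Plat, OE and NC overlapped in irradiated (4.20 to 12.3 against 2.12 to 6.99) and unirradiated tumours (3.72 to 5.85 against 2.78 to 7.55). Plau and Plaur had a rho of 0.635 over all 24 tumours, 0.678 among the 12 irradiated and 0.224 among the 12 unirradiated. These are descriptions over tumours that share groups and libraries.

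Plgrkt (Entrez 67759, chromosome 19, 29348599 to 29367390), a membrane receptor for plasminogen, had the lowest ratio of highest to lowest level of the 8 (1.96). It lay between 30.2 and 59.3 CPM, with group means of 35.0 to 44.4 CPM in which no gap between neighbours exceeded the larger SD. Radiation gave 0.02 ± 0.09 and OE against NC -0.03 ± 0.09 on the log2 scale, the latter with a 95% interval of -0.21 to 0.15 (edgeR adjusted p = 0.904).

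**Figure D4:**
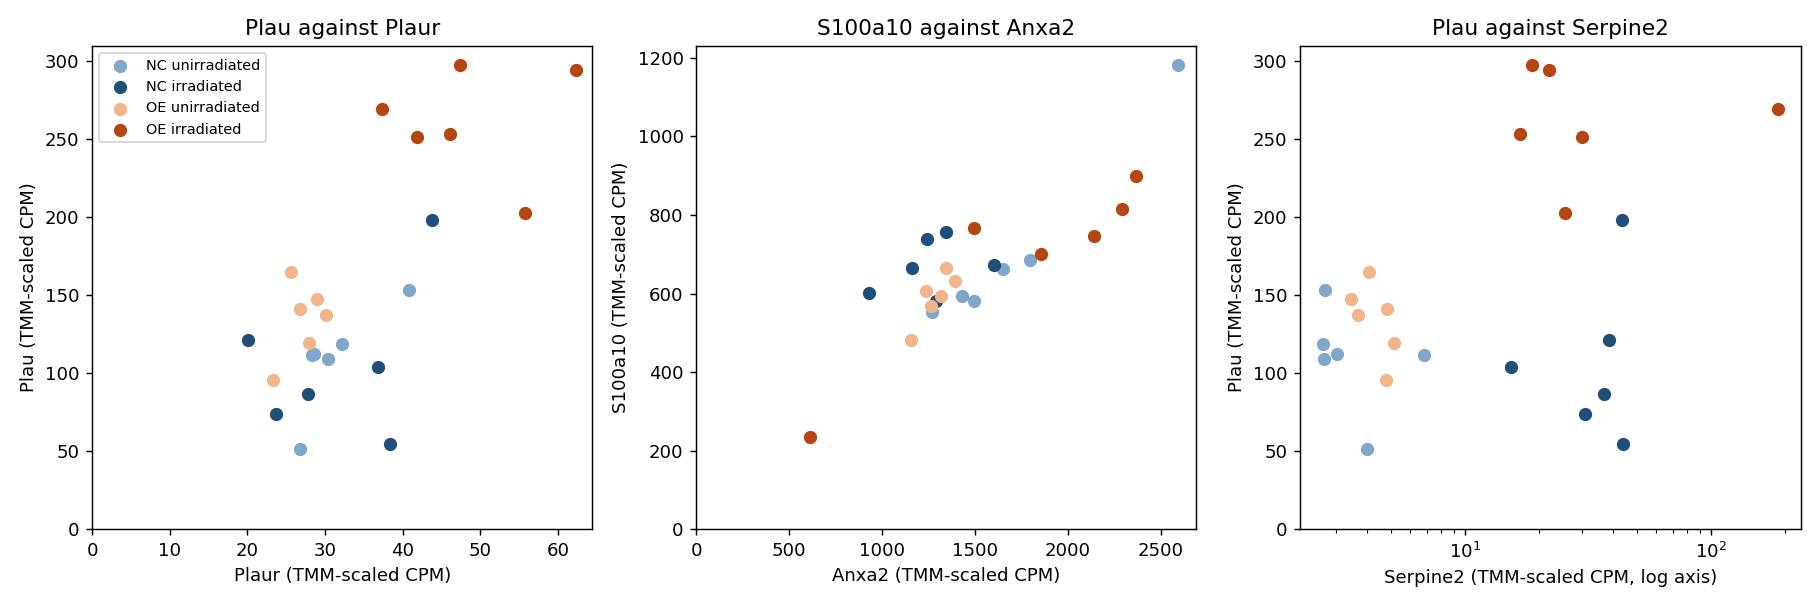
Plau against Plaur, S100a10 against Anxa2, and Plau against Serpine2 (log x axis), each point a tumour in TMM-scaled CPM coloured by cell line and irradiation. In the right panel, irradiated NC and OE tumours share Serpine2 levels of 15.3 CPM and more, while only irradiated OE tumours reach 202.4 CPM of Plau.

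Olaparib, which blocks PARP enzymes, was compared with no olaparib over both cell lines, with and without radiation. By edgeR 0 of 8 members passed in the average or in any of the 4 strata, where 0% of genes did, and 1 member had an unadjusted p under 0.05 in the average. In the strata such a p occurred for Plau in irradiated NC and Serpine2 in irradiated OE tumours. The member in the average was Serpine2, with 31.8 ± 51.1 CPM under olaparib and 14.6 ± 14.0 CPM without (n = 12), a log2 difference of 0.74 ± 0.27 (95% interval 0.17 to 1.32, edgeR adjusted p = 0.64). In irradiated OE tumours its difference was 2.08 ± 0.56 (80.7 ± 91.9 against 19.1 ± 2.65 CPM, n = 3, edgeR adjusted p = 0.116), where DESeq2 called it. Without the tumour that stood apart it was 0.53 ± 0.35 (27.7 against 19.1 CPM, edgeR adjusted p = 1), so the size rests on that tumour. Plau differed by 0.05 ± 0.16 with olaparib (95% interval -0.29 to 0.39). No member passed the test of whether olaparib altered the radiation change, with edgeR (adjusted p of at least 0.987, 0% of genes called) or with DESeq2, and no member had an unadjusted p under 0.05 there.

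The wider system was read from 42 partner genes in lists written with earlier results known, of which 30 were tested. Plg, the gene for plasminogen itself, was not analysed here. With radiation 15 partners were higher and 1 lower, against 21.7% and 17.5% of all genes, and their median log2 fold change was 0.45, against 0.04 over all genes. Among the inhibitors, 4 of 6 tested were higher. Serping1, the C1 inhibitor, was higher by 2.68 ± 0.51 (1.88 without the tumour that stood apart), A2m, alpha-2-macroglobulin, by 1.67 ± 0.60 and Spint1, a Kunitz-type inhibitor, by 2.37 ± 0.69, the latter 2 at under 1 CPM on average. Serpinf2, the main plasmin inhibitor of blood, had 0 to 8 reads a tumour and was not tested.

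On the receptor side 7 of 12 partners were higher with radiation and none lower. Lrp1, which takes up urokinase bound to inhibitor, was 1622 ± 410 against 1028 ± 63.1 CPM (log2 0.65 ± 0.11). Vtn, the matrix protein vitronectin that binds the urokinase receptor, was higher by 1.92 ± 0.55 at 2.93 ± 4.52 CPM (1.28 without the tumour that stood apart). The formyl peptide receptors Fpr1 (2.02 ± 0.34) and Fpr2 (1.58 ± 0.27), which are also neutrophil and macrophage genes, were higher too. Their relation to the marker sums given above was not tested. Mrc2, an uptake receptor for collagen that partners Plaur, was not called. In the coagulation list 3 of 5 tested were higher, among them thrombomodulin (Thbd, 30.1 ± 31.4 against 9.08 ± 2.43 CPM, log2 1.61 ± 0.29, and 1.19 without the tumour that stood apart) and the protein C receptor Procr (26.7 ± 9.79 against 16.1 ± 1.97 CPM, log2 0.70 ± 0.12). The third was Tfpi2 (0.99 ± 0.36), not called without the tumour that stood apart (0.52), while F3, tissue factor, was not called. On the surface list Ahnak, a large scaffold that binds the annexin complex, was higher by 0.44 ± 0.11 and Eno1, an enolase that also binds plasminogen, fell by 0.67 ± 0.18 on the log2 scale. In irradiated tumours 3 of 30 partners were higher in OE than in NC and none lower, where 0.755% of all genes were higher. These were Itgb1 (993 ± 114 against 743 ± 50.7 CPM, log2 0.42 ± 0.09, edgeR adjusted p = 0.0344), Procr (0.69 ± 0.16, edgeR adjusted p = 0.0436) and Tfpi (0.98 ± 0.24, edgeR adjusted p = 0.0481). Without the tumour that stood apart these 3 passed again, among 7 partners higher and 2 lower in OE, where 14.1% of all genes were called. The 2 lower ones were the integrin subunit Itgb3 (-1.17) and the protease inhibitor Spint2 (-1.21), and Eno1 (0.57) was among the higher ones.

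Genes whose levels ranked the 24 tumours most like each member were named from 12528 genes with a mean of at least 1 CPM, by Spearman rho. For Plau they were AA414768 (0.90), Oaf (0.854) and Phlda1 (0.83). In irradiated tumours Oaf was higher in OE by 1.35 ± 0.19, a size like that of Plau. For Plaur they were Wsb2 (0.881), Map2k3 (0.858) and Klc1 (0.843), and all 3 were called higher in irradiated OE than in irradiated NC tumours, by 0.34 to 0.58 on the log2 scale. For Serpine2 they included Abca8b (0.952) and Pros1 (0.948), the latter encoding the anticoagulant protein S, and both were called higher with radiation, by 2.34 ± 0.32 and 1.60 ± 0.23. Anxa2 was nearest to Wwp2 (0.919), Cd9 (0.917) and Wwc1 (0.898), and S100a10 to Txndc17 (0.868), Cstb (0.865) and Sh3kbp1 (0.864). Plat was nearest to Fat1 (0.85), Serpinb2 to Tmem45a (0.77) and Plgrkt to Xlr4b (0.795). A gene in such a ranking shares libraries and groups with the member, and the ranks were chosen from these same tumours.

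Both labels name the same group for 5 tumours, so the choice of label does not change the reading there. Agreement of the labels does not show that the group named is right. Serpine2 was 36.8 and 44.0 CPM in the 2 NC IR tumours and 29.8 CPM in the OE tumour given IR with olaparib, against 4.83 and 4.07 CPM in the OE sham and OE olaparib tumours. Plau was 251 CPM in that irradiated OE tumour, 86.3 and 54.3 CPM in the 2 irradiated NC tumours, and 141 and 165 CPM in the 2 unirradiated OE tumours. No test was run on these 5 tumours.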

How the data were processed

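The deposited table holds raw read counts per gene and tumour for 27368 genes and 24 tumours, with no normalization, as checked on the values. Per the submitters' processing notes, reads were processed with fastp, HISAT2 and HTSeq on mm10; versions, annotation and strand setting are not given in the sources used here. Overlapping and antisense genes are therefore uncertain. Replicates were no copies of 1 library (lowest chi-square per gene between 2 replicates 13.6). Nothing beyond a number per tumour says that replicates are separate mice, so p-values measure the spread between these tumours. Library totals of 37099055 to 40004502 make counting error small beside that spread, except for Serpinb2.

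Groups were taken from the coded identifier, with the written labels as an alternative; the coded reading was preferred with earlier results known, which included a check on p53 target genes of these tumours, so radiation values are not independent of it. Replicates are numbered in order of deposit. Counts were fitted with edgeR 4.0.16 in R 4.3.3 (quasi-likelihood F-test, TMM, filterByExpr, 8 group means, all 24 libraries, Benjamini-Hochberg over 16560 genes, threshold 0.05). SE is the log2 fold change divided by the root of F. Alternatives were DESeq2 1.42.0, its size factors, no filter, compared groups alone, additive factors and leaving out each tumour. The procedure was tested on simulated data. Members and lists were chosen with earlier results of these data known; pooled contrasts within NC, OE, irradiated and unirradiated tumours were added after the data were seen. Named genes are the 8 members, 9 fixed partners, up to 3 called partners per list with the smallest p, and the 3 genes most like each member; others named were chosen after their values were seen, and some genes the rule names are not reported here. Gene positions and exon lengths come from GENCODE M21 (mm10), promoters and the microRNA from RefSeq (GRCm38.p6).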

Additional observations from a re-analysis of the deposited data

How the results depend on the processing

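Groups by the written label ended every call: 0 members were called for OE against NC (averaged, radiation alone, irradiated), for radiation (averaged, in NC, in OE and in each stratum), and 0 partners. That reading reversed the averaged radiation changes of Plau (-0.22) and Plaur (-0.16), those in OE of Plau (-0.13) and Plaur (-0.25), the interaction of Plaur (-0.19) and Plat for OE against NC (-0.025). Why the labels differ was not tested. Additive factors called 0 members for OE against NC. The compared groups alone called 0 members for OE against NC under radiation alone, 0 for radiation in NC without olaparib, 0 in OE with olaparib and 4 in OE without olaparib. No filter on low counts gave 0 members under radiation alone and 3 for averaged radiation. DESeq2 called 2 members for OE against NC in irradiated tumours, 1 for olaparib in irradiated OE tumours, and 3 each for radiation in OE with and without olaparib. The cause of these shifts was not tested. With DESeq2 size factors no count of members moved by over 1.5 times.

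Leaving out 1 tumour at a time gave 2 to 5 members for averaged radiation, 1 to 2 in NC and 3 to 4 in OE. By stratum it gave 0 to 2 in NC without olaparib, 0 to 1 in NC with it, 0 to 2 in OE without it and 1 to 2 in OE with it. For OE against NC it gave 0 to 1 averaged, 0 to 2 under radiation alone and 0 to 3 in irradiated tumours. It gave 0 to 2 for the interaction, 0 to 1 for olaparib in irradiated OE tumours, 13 to 18 partners, and 0 for the other contrasts. Serpine2 with radiation stayed called in all 24 such fits (2.84 to 3.34), as did Plaur (0.33 to 0.49). Plau for OE against NC over all treatments was called in 11 of 24 (0.75 to 0.95).

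Counts over all genes moved more than those of members. DESeq2 against edgeR called 612 against 75 genes for OE against NC on average, 983 against 217 in irradiated and 115 against 1 in unirradiated tumours, 344 against 0 after sham treatment, 789 against 14 under radiation alone, 7 and 131 against 0 under olaparib alone and with radiation, and 220 against 1 for the interaction. For olaparib it called 2 against 0 on average, 13, 3, 4 and 762 against 0 in NC, irradiated NC, OE and irradiated OE, and 6 against 0 for its interaction with radiation. For radiation it called 3207 against 2115 in OE, 2881 against 1659 and 1374 against 241 in NC without and with olaparib, and 623 against 41 and 2392 against 1122 in OE. The compared groups alone gave 0 and 2195 in the NC strata, 2106 and 0 in the OE strata, 0 for OE against NC under radiation alone and 1 after sham treatment. Without a filter the counts were 39 for OE against NC on average, 123 irradiated, 0 unirradiated, 6 under radiation alone, and 799, 83, 21 and 745 in the 4 radiation strata. DESeq2 size factors gave 124 for OE against NC on average. The written labels gave 1 gene for averaged radiation, 7 in NC, 0 in OE, 5 in NC without olaparib and 0 in the other strata, 0 for OE against NC on average and within irradiated or unirradiated tumours, 2107 under radiation alone, 1 with radiation plus olaparib, 422 for olaparib in irradiated NC and 0 for the interaction. Leaving out 1 tumour moved these counts too. Without the tumour that stood apart edgeR called 2379 genes for OE against NC in irradiated tumours, 838 averaged, 989 under radiation alone, 23 after sham treatment, 593 for the interaction and 162 for radiation in OE with olaparib. The lowest counts were 9 in irradiated tumours (without NC IR with olaparib 3), 15 averaged (without OE olaparib 2) and 0 under radiation alone and for the interaction. Averaged radiation ran from 5504 to 7540 genes, NC from 2510 to 6291 and OE from 879 to 3365.

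No paired analysis was possible because the coded identifiers carry no replicate number shared between groups, and numbers given in order of deposit pair nothing. With 3 tumours a group, single strata give wide intervals, and Serpinb2, at 0 to 318 reads a tumour, is also limited by depth.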
